A study of Mus musculus with 6 samples.

Results

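Atrial cardiomyocytes, the contracting cells of the heart's inflow chambers, were examined in single-cell RNA profiles of the dissected heart-forming region of E10.5 mouse embryos. A cell was taken as an atrial cardiomyocyte when its barcode had at least 2500 detected genes, at most 10% of its molecules from mitochondrial genes, at least 5 molecules each of Tnnt2 (cardiac troponin T) and Ttn (titin), fewer than 10 of Myl2 (the ventricular myosin light chain), and at least 5 in all of Vsnl1, Kcnj3 and Tmem163. The rule found 1269 cells among 35962 passing barcodes and 53362 deposited ones. All 1269 entered the values below, except where cells are said to be left out. The molecules are unique molecular identifiers (UMIs), each of which stands for 1 captured RNA. Since the cells were picked from these counts, levels in them are given as a description, without a test.

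The embryos were wild type and of the C57BL/6 strain. They came from normal glycemic males mated either with females given a vehicle, which had normal glucose (3 samples), or with females given streptozotocin (STZ), a toxin of the insulin-producing cells, which were hyperglycemic (3 samples). The tissue also held mesoderm, ectoderm and endoderm from outside the heart, and the study asks how maternal diabetes alters the developing heart and pharynx. The labels speak of at least 3 embryos and do not say how many entered a sample; their descriptions name a chromatin assay, whereas the titles, the kit and the library source name RNA.

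The 6 libraries were deposited as 1 matrix and are told apart by the number at the end of each barcode. No file used here pairs that number with a sample, so STZ and vehicle were not compared, and libraries are described without a group. Total counts ran from 200462921 to 248426458 UMIs per library. Brackets after a share or a ratio hold 95% intervals for counting error only. These are exact binomial (Clopper-Pearson) for shares and the matching binomial interval for ratios. The intervals do not cover differences between embryos. Brackets after a level hold the lowest and highest library value instead. Levels are counts per 1000000 UMIs (CPM) of the summed cells.

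In the mouse the atria and the sinus venosus form at the inflow end of the heart tube. The nuclear receptor Nr2f2 (COUP-TFII) and the T-box factor Tbx5 are needed for the atrial program, and atrial muscle is known for the light chain Myl7 and the natriuretic peptide Nppa. At the junction with the veins, the sinus venosus gives rise to the pacemaker of the heart. Its muscle makes Shox2, Isl1, Tbx18 and the pacemaker channel Hcn4, and it is known for low Nppa.

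The upstream sequences of Nppa and Myl7 are shown because the levels of these transcripts, the best known of atrial muscle, differed in the way they varied among the cells described below. They are the 250 bases before the transcript start in RefSeq on build GRCm38.p6, printed 5′ to 3′ on the strand of the gene. Nppa lies on the plus strand with its window at chr4:148000472-148000721, and Myl7 on the minus strand with its window at chr11:5898783-5899032. Capitals mark matches to a T-box motif (TCACACC), an NK2 motif (AAGTG) and a GATA motif (TGATAA), each sought on both strands.
Nppa: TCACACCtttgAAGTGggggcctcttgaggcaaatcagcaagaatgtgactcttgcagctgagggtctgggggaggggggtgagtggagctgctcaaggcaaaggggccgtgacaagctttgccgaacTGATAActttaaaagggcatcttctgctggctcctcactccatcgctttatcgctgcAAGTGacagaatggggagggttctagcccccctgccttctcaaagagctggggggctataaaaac
Myl7: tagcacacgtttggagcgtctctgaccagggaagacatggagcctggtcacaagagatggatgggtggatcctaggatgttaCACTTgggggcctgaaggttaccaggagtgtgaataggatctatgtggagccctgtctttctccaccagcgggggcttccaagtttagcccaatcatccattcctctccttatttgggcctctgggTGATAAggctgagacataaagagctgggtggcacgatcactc

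In the Nppa window the T-box match began 250 bases before the start, the NK2 matches began 239 and 65 bases before it, and the GATA match began 122 bases before it. In the Myl7 window the NK2 match, on the reverse strand as CACTT, lay 168 to 164 bases before the start and the GATA match 42 to 37 bases before it. None of these matches overlapped another. The T-box letters occurred in 3.33% of 32851 RefSeq windows of the same length, the NK2 letters in 40.7% and the GATA letters in 7.94%. A match describes the letters of a window and was not tested as a binding site.

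Atrial cardiomyocytes made up 3.53% (3.34 to 3.72) of the passing barcodes. Libraries 1 to 6 gave 265, 255, 136, 188, 248 and 177 of them. Their share of the passing barcodes of each library was 4.11, 4.25, 2.77, 3.31, 3.48 and 3.05% in that order. Library 3 had the lowest share and library 2 the highest. Set beside the 1549 cells that met the same troponin and titin limits but had 10 or more Myl2 UMIs (Myl2-high cardiomyocytes), the atrial cells were 41.3, 47.8, 41.0, 49.9, 48.3 and 42.0% of both sets, or 45% (43.2 to 46.9) over all libraries. The atrial share of both sets thus lay between 41.0 and 49.9% in every library. What dissection and dissociation contributed to such shares was not measured.

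**Figure D1:**
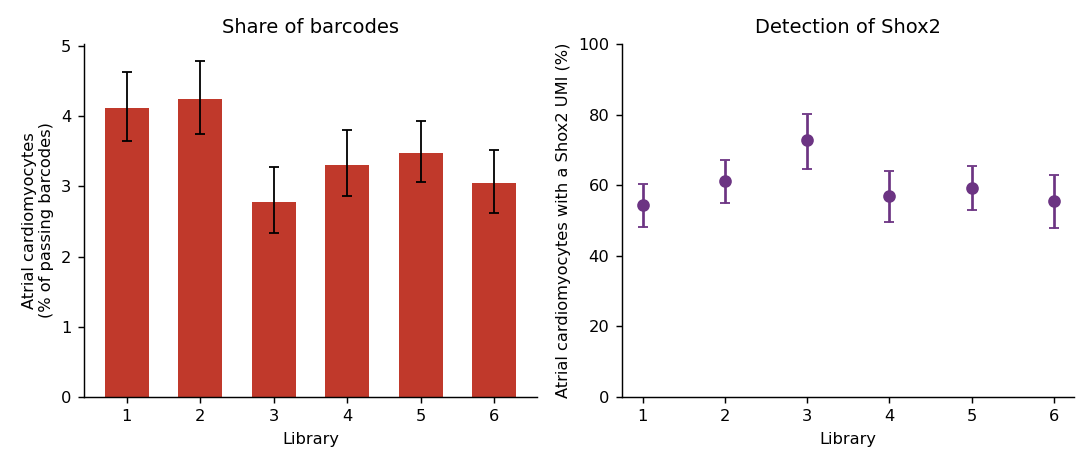
Left, atrial cardiomyocytes as a percentage of the passing barcodes in libraries 1 to 6, with exact binomial 95% intervals; the share runs from 2.77% in library 3 to 4.25% in library 2. Right, the percentage of atrial cardiomyocytes with at least 1 UMI of Shox2 in the same libraries, with the same kind of interval; the share lies between 54.3 and 72.8%.

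Detection of the genes of the rule in members was fixed by the rule and is given as a description. Vsnl1, a neuronal calcium sensor that marks sinus and atrial muscle, had a median of 17 UMIs per member and was detected in 97.4% of members, against 13.0% of Myl2-high cells. Tmem163, a zinc transporter, had a median of 5 UMIs and was detected in 74.6%, against 58.5% of Myl2-high cells, and Kcnj3, a subunit of the acetylcholine-gated potassium channel, had a median of 1 and was detected in 55.6%, against 35.1%. Vsnl1 thus carried most of the sum, whose median was 29. No Myl2 UMI was seen in 752 members.

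Cells near the limits were few. A sum of 5 to 7 was found in 53 members, and 38 cells within the same troponin, titin and Myl2 limits missed the rule with a sum of 2 to 4. Nr2f2 stood at 174 CPM in the former and 196 CPM in the latter, and Nppa at 549 and 133 CPM. The 434 cells with a sum of 0 were different again, with Nr2f2 at 31.0 CPM, Nppa at 0.798 CPM and the ventricular myosin Myh7 at 871 CPM. On the Myl2 axis, 48 members had 7 to 9 UMIs, and 19 cells with a sufficient sum lay just outside with 10 to 12. Nr2f2 was at 197 CPM in the 48 and 129 CPM in the 19, Myh7 at 92.2 and 50.3 CPM, and Irx4 at 8.76 and 7.36 CPM. The 19 cells were thus closer to members than to the Myl2-high set that held them. The Myl2-high set was not free of the atrial markers, since 565 of its 1549 cells had a sum of 5 or more. Those 565 had Myh7 at 1058 CPM and Irx4 at 68.6 CPM, against 1229 and 58.8 CPM in the whole set.

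**Figure D2:**
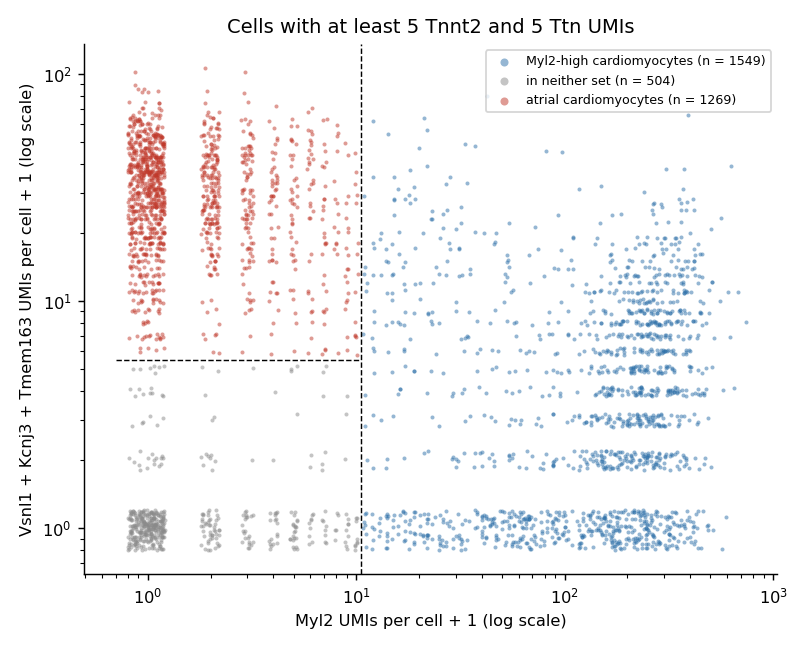
Each point is a cell with at least 5 Tnnt2 and 5 Ttn UMIs; the x axis is its Myl2 UMIs and the y axis its summed Vsnl1, Kcnj3 and Tmem163 UMIs, both plus 1 and on log scales, and the dashed lines are the limits of the rule. The 1269 atrial cells (red) fill the upper left, the 1549 Myl2-high cells (blue) the right, and 504 cells meet neither rule (grey).

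Atrial cells were deeply sampled, with a median of 38216 UMIs and 6419 genes per cell, against 53415 UMIs and 6983 genes in Myl2-high cells and 32539 UMIs and 6195 genes in all other passing barcodes. The median mitochondrial share was 3.36% in atrial and 3.35% in Myl2-high cells. A barcode sequence that also occurred in another library was carried by 203 members, none of which shared it with another member, and by 338 Myl2-high cells. A doublet caller marked 172 members (13.6%) and 129 Myl2-high cells (8.33%). Of all barcodes scored it marked 4.84 to 7.10% by library. Those barcodes needed only 1000 genes and at most 20% mitochondrial UMIs, so they were not matched to members in depth. Members were marked more often than the barcodes scored in every library. In library 6 it marked 7.91% of members and 7.79% of Myl2-high cells, and the gap was wider in the others. Counts of genes without the marked barcodes and without the shared sequences are given with the limits at the end.

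Against Myl2-high cells, the atrial cells had higher levels of the transcription factors Nr2f1, Nr2f2, Tbx5 and Hey1. The same held for 6 of 12 listed genes of the sinus node and venous pole. Levels of the ventricular factors Irx4, Hand1 and Hey2 and of the calcium pump regulator Pln were lower. A gene was counted when it reached 20 CPM on the higher side and its ratio was at least 2-fold both in the sums and in each of the 6 libraries. Since a gene could reach that level through either set alone, the counts for lists are a description and not support for a group. Of 6397 genes at that level, 139 were counted as higher (2.17%) and 38 as lower (0.594%), the genes of the rule left out. Over the same 6397 genes the median ratio was 1.05, and the ranges of the library values did not overlap, in either direction, for 35.2%. Both sets of cells were drawn by counts of these libraries, so these percentages serve as a scale for the gene groups below and nothing is concluded from them.

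**Figure D3:**
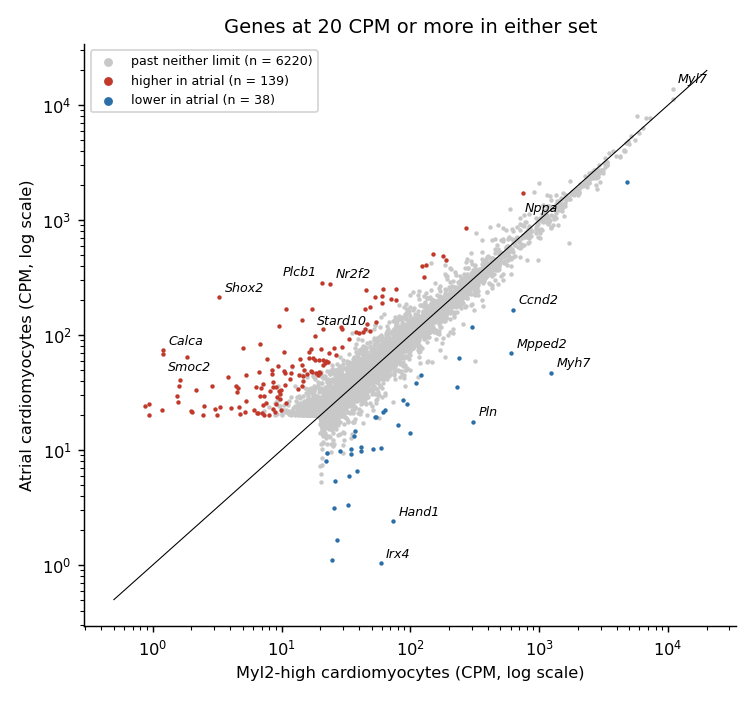
Each point is 1 of the 6397 genes at 20 CPM or more in either set, with its level in Myl2-high cells on the x axis and in atrial cells on the y axis, both in CPM on log scales; the line marks equal levels. The 139 genes counted as higher in atrial cells are red and the 38 counted as lower are blue; Myl7 and Nppa lie close to the line, whereas Shox2 and Nr2f2 lie far above it.

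Of the 16 atrial chamber genes listed, 12 reached the level limit, and 7 of these were higher and none lower in atrial cells, with a median ratio of 2.80. Of the 12, the light chains Myl4 and Myl7 had the smallest ratios. Myl7, the atrial regulatory light chain, was at 15497, 13501, 10429.8, 14754, 14212 and 12934 CPM in the atrial cells of libraries 1 to 6, and at 10441, 11858, 9124, 11741, 11299 and 10803 CPM in the Myl2-high cells. It was higher in the atrial cells of every library, but by a ratio of only 1.27 (1.27 to 1.28), and the ranges overlapped, since the atrial value of library 3 was below the Myl2-high values of the other 5 libraries. Myl4, the atrial essential light chain, gave a ratio of 1.14. Neither atrial light chain thus set the 2 groups of cells apart at the 2-fold limit. Myh6, the alpha myosin heavy chain, was at 1747 CPM (1409.6 to 2142 over libraries) in atrial cells and 918 CPM (774 to 1124) in Myl2-high cells, with no overlap and a ratio of 1.90, just short of the limit.

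Nppa, the precursor of the atrial natriuretic peptide, did not order the chambers in the same way in each library. In libraries 1 to 6 its level was 1424, 766, 701, 781, 1514 and 734 CPM in atrial cells, and 847, 538, 949.7, 626, 477 and 765 CPM in Myl2-high cells. Atrial cells were higher in 4 libraries and lower in libraries 3 and 6. The atrial cells without a UMI of the sinus gene Shox2, described below, were at 1193 to 2663 CPM of Nppa, above the Myl2-high cells of every library, and at 14681 to 18249 CPM of Myl7, likewise without overlap. The pooled ratio of 1.48 therefore stands for a mixture of directions. It was 1.19 after cells were thinned to 10000 UMIs (7 atrial and 2 Myl2-high cells were too shallow and left out), 1.62 without the atrial cells with 5 or more epicardial UMIs described below, and 2.07 against the Myl2-high cells with an atrial sum under 5.

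The transcription factors of the atrial chamber list separated the sets clearly. Nr2f2 was at 249, 288, 297, 296, 258 and 309.7 CPM in the atrial cells of libraries 1 to 6, and at 17.6, 22.0, 20.8, 27.9, 33.8 and 25.9 CPM in the Myl2-high cells, a ratio of 11.6 (11.1 to 12.2). Each atrial value was above each Myl2-high value. Its paralog Nr2f1 was at 136 against 14.4 CPM, a ratio of 9.47. Tbx5, the T-box factor of the inflow chambers and left ventricle, was at 96.8 to 126 CPM in atrial and 42.2 to 47.0 CPM in Myl2-high cells, a ratio of 2.52 (2.42 to 2.62). The Notch target Hey1, the atrial member of its family, was at 32.0 against 4.52 CPM, a ratio of 7.09.

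The remaining genes counted as higher were Stard10, a lipid transfer protein at 169.9 against 17.2 CPM, Kcna5, the channel of the ultra-rapid potassium current, at 35.8 against 4.43 CPM, and the vessel growth factor Angpt1 at 406 against 132 CPM. Gja5, the junction protein connexin 40, was under the level limit at 16.0 against 4.87 CPM. Sln, sarcolipin, an inhibitor of the calcium pump that is typical of mature atria, was at only 8.30 against 3.05 CPM. The adult atrial marker was therefore near the lower end of detection here. Bmp10, a growth factor of the trabeculae and later of the right atrium, was at 5.36 and 5.14 CPM.

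**Figure D4:**
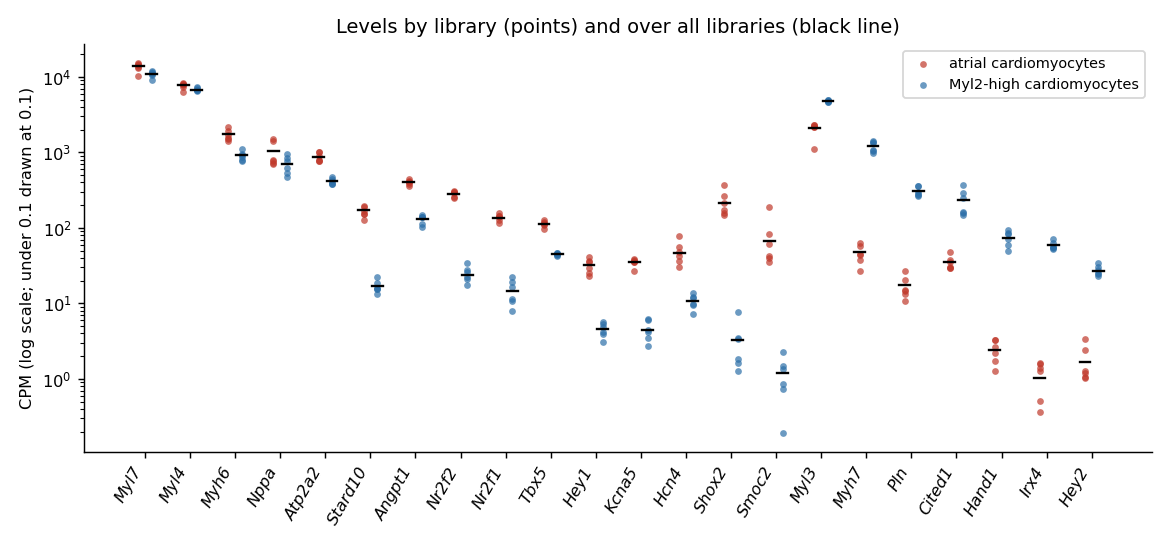
Levels of 22 chamber and sinus genes in CPM on a log axis, for atrial (red) and Myl2-high (blue) cardiomyocytes; points are the 6 libraries and black lines the sums over libraries. The red and blue points overlap for Myl7, Myl4 and Nppa and lie apart for Nr2f2, Shox2, Irx4, Hand1, Myh7 and Pln.

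Among 16 ventricular chamber genes, 14 reached the level limit. Of these 7 were lower and none higher in atrial cells, and the median ratio was 0.483. Irx4, the homeobox factor that keeps ventricular identity, was at 1.04 CPM (0.367 to 1.61 over libraries) in atrial cells against 58.8 CPM (53.2 to 70.3) in Myl2-high cells, which were higher 56.8-fold (43.7 to 75.0). Hand1, a factor of the outer curvature of the left ventricle, was at 2.40 against 73.6 CPM, whereas its paralog Hand2 did not separate the sets, at 61.1 and 59.6 CPM with overlapping ranges. Myh7, the beta myosin heavy chain, was at 44.6, 57.3, 43.2, 26.5, 62.3 and 37.4 CPM in the atrial cells of libraries 1 to 6, and at 966.8 to 1425 CPM in Myl2-high cells. Hey2, the ventricular relative of Hey1, was at 1.65 against 27.1 CPM, and Cited1 at 35.5 against 232 CPM. Myl3, the ventricular essential light chain, was also counted as lower but was still at 2125 CPM in atrial cells against 4804 CPM. Myl3 RNA was thus a shared feature of both chambers, unlike Irx4 or Hand1.

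Calcium handling had 12 of 16 genes at the level limit, with none higher, 1 lower and a median ratio of 1.05. The gene counted was Pln, phospholamban, the brake on the calcium pump, at 17.6 CPM (10.8 to 26.5) against 306 CPM (266 to 362), so that Myl2-high cells were higher 17.4-fold (16.3 to 18.6). The pump itself, Atp2a2 (SERCA2), stood the other way at 876 against 415 CPM. Its ratio was 2.11 and its library ranges did not overlap, but 1 or more libraries fell short of 2-fold. The release channel Ryr2 was at 1102 against 762 CPM, and the exchanger Slc8a1 at 4021 against 3758 CPM with overlapping ranges. Atrial cells thus had more pump RNA and far less RNA of its brake, with the exchanger near equal.

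Sarcomere RNA was present in both chambers, with a tendency to lower levels in atrial cells. Of 24 sarcomere genes 23 reached the limit, none was counted in either direction, and the median ratio was 0.796. Over all 6397 genes the median was 1.05. Actc1, cardiac actin, was at 11336 and 11016 CPM, and Tnnc1, troponin C, at 3015 and 2907 CPM. Acta1, skeletal actin, was lower at 446 against 977 CPM with ranges that did not overlap, as was Des, desmin, at 447 against 811 CPM. Actn2, Tnni1, Nebl, Cryab, Tcap, Smyd1, Xirp1 and Cdh2 were also lower without overlap. Myl9 alone was higher without overlap, at 1631 against 1203 CPM. Over all genes at the limit, ranges did not overlap, in either direction, for 35.2%.

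The genes of the sinus node and venous pole were in part higher. Of 12 listed, 11 reached the limit, 6 were higher and none lower in atrial cells, and the median ratio was 3.17. Of the 6, Hcn4, Shox2, Tbx18 and Smoc2 reached 20 CPM only in the atrial cells, so the level limit admitted them through that side. Shox2, the factor that keeps sinus muscle apart from the working atrium, had the largest ratio of all 139 genes. It was at 213, 263, 372, 147, 155 and 174 CPM in the atrial cells of libraries 1 to 6, and at 1.29, 7.77, 1.64, 1.81, 3.33 and 3.45 CPM in the Myl2-high cells, a ratio of 65.2 (58.0 to 73.6). Against only those Myl2-high cells that had an atrial sum under 5, the ratio was 155 for Shox2 and 9.35 for Tbx18, which was 5.76 against all of them. The pacemaker channel Hcn4 was at 46.4 CPM (29.9 to 77.1) against 10.7 CPM (7.23 to 13.5). Tbx18, which builds the sinus horns, was at 54.1 against 9.40 CPM, and Smoc2, a matrix protein, at 67.9 against 1.2 CPM. Isl1, which marks incoming progenitors and the sinus node, was at 48.4 against 23.8 CPM and was not counted, because its ratio was under 2 in at least 1 library. Tbx3, the repressor of the working program in the node, was at 20.7 against 14.5 CPM with overlapping ranges. Library 3, which had the lowest Nppa and Myl7 of the 6, had the highest Shox2 and Hcn4. It also had the highest sum of the 6 epicardial markers, 256 CPM against 103 to 149 CPM in the other libraries, and 16.2% of its members had 5 or more epicardial UMIs, against 9.43 to 12.8% elsewhere. The part of these cells in the levels of library 3 was not tested.

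Genes of atrial side and septum were fewer. Of 8 listed, 5 reached the limit and 4 were higher, with a median ratio of 5.47. Besides Nr2f2 and Tbx5 these were Wnt2, a ligand of the venous pole, at 247 (176 to 383 over libraries) against 45.2 CPM, and Osr1, a factor of the dorsal mesocardium, at 33.1 against 2.19 CPM.

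Beyond the lists, the 15 largest ratios among the genes counted as higher were, after Shox2, those of Calca, Smoc2, Csmd1, Pvalb, Lin7a, Kcnip1, Pcdh17, 2610204G07Rik, Sh3gl3, Hsd3b6, Shisa6, Kcnq3, Zfp804b and Osr1. Calca, which encodes calcitonin and the vessel-widening peptide CGRP, was at 74.1 CPM (52.9 to 106) against 1.2 CPM (0.734 to 2.47). Pvalb, parvalbumin, a calcium buffer of fast muscle and neurons, was at 24.2 against 0.876 CPM. Kcnq3, a subunit of the M-type potassium channel, was at 168 against 10.8 CPM, and Kcnip1, which binds the channels of the transient outward current, at 40.7 against 1.62 CPM. The 15 largest ratios in the other direction were those of Irx4, Hand1, Myh7, Mybpc1, Pln, Hey2, Prdm16, Mpped2, Trib2, Cd59a, Cited1, Cav3, Cystm1, Tnc and Fam189a2. Prdm16, a regulator of compact ventricular muscle, was at 3.31 against 33.0 CPM, and Mpped2, a phosphodiesterase, at 69.1 against 608 CPM.

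Of 30 cardiac transcription factors, 25 reached the limit, 6 were higher and 4 lower, with a median ratio of 1.21. The 6 were Nr2f1, Nr2f2, Tbx5, Tbx18, Hey1 and Shox2, and the 4 were Irx4, Hand1, Hey2 and Prdm16. Among the core factors, Nkx2-5 was at 163 and 175 CPM and Tbx20 at 236 and 233 CPM, both with overlapping ranges. The 3 GATA factors were higher in atrial cells without overlap, though under 2-fold. Gata4 was at 234 CPM (183 to 296) against 132 CPM (122 to 147), a ratio of 1.78, Gata5 at 45.2 CPM (35.5 to 51.9) against 26.4 CPM (24.2 to 31.3), a ratio of 1.71, and Gata6 at 166 CPM (145 to 209) against 104 CPM (101 to 107), a ratio of 1.59. Of 36 growth factors and receptors 24 reached the limit, and 5 were higher and none lower, with a median ratio of 1.23. These were Angpt1, Wnt2, the peptide Adm (adrenomedullin) at 49.0 against 10.4 CPM, the Wnt inhibitor Sfrp1 at 207 against 71.1 CPM, and the guidance factor Sema3d at 22.0 against 1.97 CPM. Of 18 ion channel and junction genes 9 reached the limit and 2 were higher, Kcna5 and the sodium channel regulator Fgf12 (43.5 against 3.85 CPM), with a median ratio of 1.25. Gja1, connexin 43, stood the other way at 12.3 against 30.6 CPM and was not counted.

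Against the 34693 other passing barcodes, which span all cell types of the region, 485 of 7100 genes were higher by the same rule (6.83%) and 295 lower (4.15%), with a median ratio over all genes of 0.890 and library ranges that did not overlap for 64.1%. All 22 sarcomere genes that reached the limit were higher, with a median ratio of 8.92, as were 10 of 12 calcium handling genes and 9 of 12 atrial chamber genes. The rule chose cells by the sarcomere genes Tnnt2 and Ttn. Higher muscle genes than in barcodes of all cell types thus followed from the choice, and nothing is concluded from these counts. The 15 largest ratios were those of Pvalb, Calca, Ap3b2, Fbxo32, Mybphl, Thbs4, Myh6, Cav1, Rgs6, Adm, Hcn4, Nppa, Shox2, Cacna2d2 and Casq1. Pvalb was at 24.2 against 0.140 CPM, Myh6 at 1747 against 70.0 CPM, and Nppa at 1044 against 50.7 CPM. Among the other barcodes, Myl2-high cardiomyocytes held 61914 of 63619 Nppa UMIs and 80696 of 87920 Myh6 UMIs. Against those cells alone the ratios were 1.48 for Nppa and 1.90 for Myh6. Nr2f2 was at 279 against 186 CPM and was not counted. A gene that set atrial cells apart from Myl2-high muscle was thus not always one that set them apart from the whole region.

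The label is set beside genes that the rule did not name, measured in the same cells, as a description. Against Myl2-high cells, 7 of 12 atrial chamber genes at the limit were higher (2.17% over all genes), among them Nr2f2, Tbx5 and Hey1. Of these factors, Nr2f2 and Hey1 were not counted against the other barcodes. Nr2f1, Hey1, Stard10 and Kcna5 reached 20 CPM only in the atrial cells, so the level limit admitted them through that side. Of 14 ventricular chamber genes at the limit, 7 were lower (0.594% over all genes), and of these Irx4, Hand1 and Hey2 were under 3 CPM. Those 3 and Pln reached 20 CPM only in the Myl2-high cells and were admitted through that side. Myl3, also lower, was still at 2125 CPM, and Hand2 at 61.1 CPM and Fhl2 at 223 CPM were not counted. The Myl2 limit of the rule also chose against ventricular cells. A large part of the cells, however, carried the RNA of Shox2, which marks the sinus venosus rather than the atrial wall. At least 1 Shox2 UMI was found in 751 of 1269 cells (59.2%, 56.4 to 61.9). By library the share was 54.3, 61.2, 72.8, 56.9, 59.3 and 55.4%. The same was found in 4.58% of Myl2-high cells, and in 0.717% of 1394 blood barcodes with at least 30% of their UMIs from globin, which should lack the gene and which had a median of 64725.5 UMIs. With each cell thinned to 10000 UMIs, for which 7 atrial cells were too shallow, the shares were 50.5, 2.0 and 0.143% in that order. Over all 34693 other passing barcodes the share was 11.4%, and 6.21% after thinning, for which 1002 were too shallow. In the 504 cardiomyocytes of neither set it was 8.73%, and 4.78% after thinning. The set is therefore described as atrial cardiomyocytes by the rule, and its cells with and without a Shox2 UMI are given apart.

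Within the atrial set, the cells with a Shox2 UMI had higher levels of pacemaker and sinus venosus genes and far lower Nppa. Of 6569 genes at the level limit, 137 were higher in the 751 cells with a Shox2 UMI than in the 518 without (2.09%) and 23 lower (0.35%), with a median ratio of 1.09. Library ranges did not overlap for 28.3% of the 6569 genes. Median depth was lower with a Shox2 UMI, 35336 against 44349.5 UMIs per cell. The split uses the counts it describes, so genes that vary with Shox2 among cells had to differ.

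Of 10 sinus node and venous pole genes at the limit, Shox2 itself left out, 7 were higher in cells with a Shox2 UMI and none lower, with a median ratio of 5.01. Hcn4, Isl1, Tbx18 and Smoc2 reached 20 CPM only in the cells with a Shox2 UMI, so the level limit admitted them through that side. Hcn4 was at 84.2, 90.5, 106, 76.5, 50.3 and 63.9 CPM in the cells with a Shox2 UMI of libraries 1 to 6, and at 10.52, 9.80, 11.3, 8.31, 8.0 and 8.74 CPM in the cells without. No library overlapped, and the ratio was 8.43 (7.37 to 9.67). Isl1 was at 83.7 CPM (69.9 to 124) against 7.34 CPM (2.69 to 12.8), a ratio of 11.4, although it had not been counted against Myl2-high cells. Tbx18 was at 91.3 against 11 CPM, and the ligand Bmp4 at 235 against 38.4 CPM. The calcium channel Cacna1d, which carries pacemaker current, was at 449 against 191 CPM. Tbx3 did not follow them, at 19.9 and 21.6 CPM with overlapping ranges.

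The chamber and sarcomere lists had similar median ratios, and some of their genes were counted as lower. Of 10 ventricular chamber genes at the limit 3 were lower (Nppb, Smpx and Fhl2) and 1 higher (Lbh), with a median ratio of 0.582. Of 13 atrial chamber genes at the limit 1 was lower (Nppa) and none higher, with a median ratio of 0.660, and of 22 sarcomere genes 1 was lower (Acta1) and none higher, with a median ratio of 0.656. Of 11 calcium handling genes 1 was higher (Cacna1d) and none lower, with a median ratio of 1.04. Nppa was at 556, 188, 10.8, 159, 445 and 264 CPM in the cells with a Shox2 UMI of libraries 1 to 6, and at 2319.8, 1500.35, 2290.5, 1404, 2663 and 1193 CPM in the cells without. Cells without a Shox2 UMI were higher 6.55-fold (6.40 to 6.70), and the lowest of their libraries was above the highest of the others. Myl7 was at 10909.7 CPM (8583 to 12828) against 17264 CPM (14681 to 18249), again with no overlap. Its ratio of 0.632 was under the limit for counting. Both genes thus had less RNA beside Shox2, Nppa by far more than Myl7.

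Other genes counted as lower with Shox2 were Nppb, the B-type natriuretic peptide, at 29.3 against 109.6 CPM, Acta1 at 166 against 771 CPM, and the glucose transporter Slc2a1 at 212 against 607 CPM. The 10 largest such ratios were those of Cdh20, Perp, Nppa, Gm13481, Abcc9, Lmod3, Acta1, Klhl31, Trim54 and Mov10l1. Lmod3, Klhl31 and Trim54 are genes of muscle structure. Nkx2-5, which the head of the sinus node lacks, was at 107 CPM (62.7 to 130) against 229 CPM (183 to 258), with no overlap but a ratio of 0.467 that was not under 0.5 in each library. The atrial factors Nr2f2 (309 against 244 CPM) and Tbx5 (114 against 109.5 CPM) were close in both, and their ranges overlapped. Gja5, connexin 40 of fast-conducting muscle, was at 6.66 CPM (3.25 to 10.1) with and 26.8 CPM (16.4 to 35.4) without a Shox2 UMI. Its ranges did not overlap, but 1 or more libraries fell short of 2-fold. Osr1 was at 30.2 and 36.4 CPM with overlapping ranges. The largest ratios in favour of Shox2 cells belonged to Smoc2 (125 against 1.53 CPM), Nefm, Csmd1, Gabrb1, Gabra4, Slc44a5, Ephb1, Upk3b, Egfr and Isl1. Of these Nefm encodes a neurofilament and Gabrb1 and Gabra4 encode subunits of the GABA receptor.

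Markers of other cell types varied along with these differences. Of 6 epicardial markers, 3 reached the limit against Myl2-high cells and all 3 (Upk3b, Tcf21 and Tbx18) were higher in atrial cells. They reached 20 CPM only in the atrial cells, so the level limit admitted them through that side. Over all genes at the limit, 2.17% were higher. The summed epicardial list ran from 103 to 256 CPM over libraries in atrial cells and from 20.1 to 36.1 CPM in Myl2-high cells. None of the 6 markers was at 0 in the atrial cells. Summed UMIs of Wt1, Upk3b, Upk1b and Tcf21 reached 5 in 146 atrial cells (11.5%, against 3.42% of Myl2-high cells), and these held 82.3% of such UMIs in the set. They had Myl7 at 6005 CPM against 15589 CPM in the 693 atrial cells with none, Tnnt2 at 1773 against 4248 CPM, and 25.3% were marked as doublets against 8.95%. A Shox2 UMI was present in 89.0% of them, but also in 56.3% of the atrial cells with no epicardial UMI. The summed epicardial list was at 161 to 357 CPM over libraries in the cells with a Shox2 UMI and at 25.5 to 43.8 CPM in the cells without.

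Other lists also differed in the Shox2 split. Of 5 epicardial, 5 cushion, 3 second heart field and 4 outflow markers at the level limit, 4, 3, 2 and 3 were higher with a Shox2 UMI. Over all genes at the limit, 2.09% were higher. Isl1, Tbx18 and Upk3b of these lists reached 20 CPM only in the cells with a Shox2 UMI, so the level limit admitted them through that side. Isl1, Bmp4 and Tbx18 on these lists are also on the sinus list. Their sums with and without a Shox2 UMI were 296 to 427 and 272 to 363 CPM for the cushion list, 363 to 616 and 152 to 228 CPM for the second heart field list, and 367 to 523 and 88.0 to 237 CPM for the outflow list. The neural list ran from 13.9 to 142 CPM with and from 0.530 to 7.43 CPM without a Shox2 UMI. The cushion ranges overlapped, whereas the other 3 did not. No gene of these lists was at 0 in either set. The part of other cells in these results was not tested beyond the epicardial cells left out next.

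Without those 146 cells, 113 genes were higher and 43 lower against Myl2-high cells, and 106 were higher with a Shox2 UMI. Only atrial cells were left out, and the 53 Myl2-high cells with 5 or more epicardial UMIs were kept. The Shox2 ratio to Myl2-high cells was then 63.1, that of Hcn4 4.38, and the Nppa ratio between cells with and without a Shox2 UMI 0.194. Tbx18, which epicardium makes as well, had a ratio to Myl2-high cells of 3.01 in place of 5.76, and Upk3b a ratio of 0.382, from over 10 with all cells. Upk3b was one of the genes by which these cells were chosen, so its fall was fixed by the choice.

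**Figure D5:**
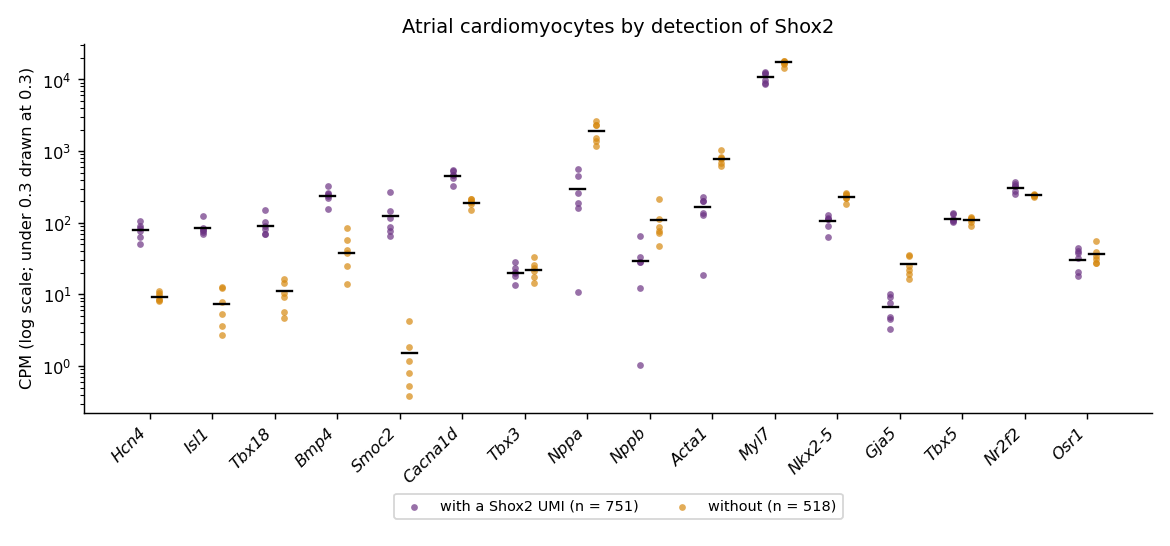
Levels of 16 genes in CPM on a log axis in the 751 atrial cardiomyocytes with a Shox2 UMI (purple) and the 518 without (orange); points are the 6 libraries and black lines the sums. Hcn4, Isl1, Tbx18, Bmp4 and Smoc2 are higher with a Shox2 UMI, Nppa, Nppb, Acta1 and Gja5 are higher without, and Tbx3, Tbx5, Nr2f2 and Osr1 overlap.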

How the data were processed

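The authors deposited 1 matrix of UMI counts (whole numbers per gene and barcode, 32285 genes) for all samples, made with Cell Ranger 5.0.0 (per the file headers) from 10x Chromium 3′ version 3 libraries per the labels' protocols. The submitters' processing notes also name CASAVA 1.8, Seurat 4 and build mm10, without saying for which step. How barcodes were called as cells is not given in the sources used here.

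Counts were summed over the cells of a set and library and scaled to CPM, in Python 3.11.15 with numpy 2.4.6, scipy 1.17.1, pandas 2.3.3 and scikit-learn 1.9.0. Library ratios had 0.5 count added on both sides. No significance test was run, since the cells were chosen from the same counts and the libraries have no group. The members, gene lists and thresholds were chosen with earlier results of these data known. Named genes are those of the rule, those of the lists, the 15 largest ratios in each direction against Myl2-high cells and upward against other barcodes, and the 10 largest in each direction in the Shox2 split. Of the lists and splits chosen, 3 genes and 1 split are not reported here.

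Doublets were scored per library by the share of simulated doublets (2 per cell) among 50 neighbours in 30 components of 2000 variable genes, and the highest scores were marked at 0.8% per 1000 barcodes. They were kept in the main values. The counting of genes was tried on simulated counts that held counting error only. Those counts had no differences between libraries beyond depth and no choice of cells, so the trial cannot speak to either. Alternatives were other limits of the rule, thinning, doublets, shared barcodes, single libraries, the fold and the level limit. After seeing the data, 2 were added: Myl2-high cells with an atrial sum under 5, and atrial cells without 5 or more epicardial UMIs.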

Additional observations from a re-analysis of the deposited data

How the results depend on the processing

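Atrial cells were 2.92% of passing barcodes with limits of 1000 genes and 20% mitochondrial UMIs, 3.25% with an atrial sum of at least 10, 3.22% with Myl2 below 5, 3.27% without marked doublets, 3.22% without shared barcode sequences, 3.12% without the cells with 5 or more epicardial UMIs, and 3.38 to 3.65% with single libraries left out. Counts of genes moved most with the definition of a call. At 3-fold, 63 genes were higher and 21 lower against Myl2-high cells, 295 higher and 118 lower against the other barcodes, and 47 higher with Shox2. At 5 CPM these were 281, 77, 732, 662 and 225. With single libraries left out they ran from 135 to 146, 39 to 53, 486 to 505, 297 to 399, and 138 to 158. Under the remaining alternatives each count stayed within 1.5 times its value. They included 147 higher genes against Myl2-high cells without marked doublets, 164 without shared barcodes, 134 after thinning and 154 against Myl2-high cells with an atrial sum under 5. The ratio of Upk3b to Myl2-high cells turned to 0.382 without the atrial cells with 5 or more epicardial UMIs, which were defined in part by that gene.

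No paired analysis was possible because no file used here pairs a library with the replicate number of a sample. Depth limits genes under 20 CPM, which were not counted, and shares of cells with a UMI, which were lower after thinning.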

Other observations

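Of 23 genes of glucose handling and glycolysis, 22 reached the level limit against Myl2-high cells, none was counted in either direction, and the median ratio was 0.810. The glucose transporter Slc2a1 was at 395 CPM (246 to 454 over libraries) against 605 CPM (531 to 643), and Ldha, lactate dehydrogenase A, at 1873 CPM (1457 to 2021) against 2803 CPM (2672 to 2861). Neither overlapped between libraries. Against all other barcodes 7 of 22 were higher, among them the muscle isoform Pgam2 at 467 against 39.2 CPM. Of 22 genes of fatty acid, creatine and mitochondrial function, 18 reached the limit against Myl2-high cells, none was counted, and the median ratio was 0.912. The fatty acid carrier Fabp3 was at 281 against 479 CPM and the uptake protein Cd36 at 31.0 against 15.4 CPM. Of 22 cell-cycle genes, 21 reached the limit, 1 was lower and none higher, with a median ratio of 0.747. Against the other barcodes 6 of 21 were lower (Mcm3, Mcm5, Tyms, Rrm2, Ccne1 and Ccnd1) and none higher, with a median ratio of 0.503. The gene lower than in Myl2-high cells was Ccnd2, cyclin D2, at 166 CPM (143 to 183) against 625 CPM (588 to 668). The cell-cycle inhibitor Cdkn1c was at 636 against 1692 CPM. The proliferation marker Mki67 was at 67.2 and 80.1 CPM with overlapping ranges.

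Retinoic acid, a vitamin A signal that patterns the inflow region, had 4 of 18 genes at the limit against Myl2-high cells. The carrier Crabp2 (75.6 against 20.2 CPM) was higher, and none was lower. In the other barcodes it was at 188 CPM. Erythroid markers varied by library. Their sum ran from 55.0 to 6818 CPM in atrial cells, and 4 cells with at least 1% globin, 1 in each of libraries 1, 3, 4 and 5, held 95.7% of the globin UMIs of the set. The 504 cells with troponin and titin in neither set had Isl1 at 297 CPM (276 to 321), Rspo3 at 140 CPM (96.4 to 197) and Myh7 at 791 CPM, with Nr2f2 at 46.3 CPM and Shox2 at 11.1 CPM.

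Of the other marker lists, against Myl2-high cells 1 of 2 endothelial genes at the limit was higher (Kdr, 20.9 against 7.05 CPM). The same held for 1 of 3 cushion genes (Pdgfra, 23.8 against 3.32 CPM). It also held for 2 of 3 second heart field genes (Wnt2 and Osr1, also on the list of atrial side). Kdr, Pdgfra and Osr1 reached 20 CPM only in the atrial cells, so the level limit admitted them through that side. Over all genes at the limit, 2.17% were higher, and nothing is concluded from lists this short. None of 4 outflow, 5 erythroid, 2 endoderm and ectoderm, and 3 smooth muscle genes was counted. Endocardial, myeloid and neural lists had no gene at the limit. The part of these cell types in the levels above was not tested.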
